A study of Homo sapiens with 4 samples.

Results

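The genes described here encode the machinery of homologous recombination and of the Fanconi anaemia pathway, in RNA-seq libraries of the human myeloma cell line RPMI 8226 that had taken up antisense oligonucleotides made with locked nucleic acid (LNA). They were chosen as a named list of 37 symbols, of which 37 were found by Ensembl ID among the 78932 gene rows of the deposited table. The rule itself uses no measured value, but the list was chosen with earlier results of these data known. In the LINC01432 LNA group (2 libraries), the oligonucleotide was directed at the long noncoding RNA LINC01432 and given at 50 nM for 72 h. In the control LNA group (2 libraries), cells received a control LNA oligonucleotide, compared over the same 72 h, and its dose is not stated separately in the labels. The titles name a single oligonucleotide for each group (ASO3 and ASO1), so an effect of the lowered RNA and an effect of that oligonucleotide's own sequence cannot be told apart. No label states that replicate libraries are separate cultures, and the p-values below therefore rest on a spread between libraries that may be technical.

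Homologous recombination repairs DNA double-strand breaks and broken replication forks by copying an intact sister chromatid. The MRE11-RAD50-NBN complex binds and trims the break, nucleases and helicases lengthen the single-stranded end, and BRCA1, PALB2 and BRCA2 prepare it for strand exchange with the help of paralogs such as XRCC2 and XRCC3. The Fanconi pathway detects crosslinks between the DNA strands: a core complex attaches ubiquitin to the FANCD2-FANCI clamp, which brings nucleases to the lesion, and the kinases ATM and ATR signal the damage to the cell cycle. Many of these genes are transcribed most in S and G2 phase, and in myeloma the pathway bears on the repair of crosslinks made by alkylating drugs such as melphalan.

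The libraries held 20873393 and 26185342 gene counts in the LINC01432 LNA group, against 29161298 and 24493148 in the control LNA group. LINC01432 averaged 9.45 ± 0.642 CPM (counts per 1000000 gene counts, scaled between libraries by edgeR's TMM method; SD, n = 2) in LINC01432 LNA libraries and 19.2 ± 1.84 CPM in control LNA libraries, 2.03-fold lower (edgeR's quasi-likelihood test, adjusted p = 0.000228 by Benjamini and Hochberg's method over all genes tested). All 8 plasma cell markers were detected, summing to 2240 and 2450 CPM in LINC01432 LNA libraries and 2480 and 2570 CPM in control LNA libraries. Of these markers, CD38 was called higher (log2 fold change 0.72), TNFRSF17 and XBP1 were called lower (-0.53 and -0.35), and 5 did not pass. The 7 T and NK cell markers summed to 1.91 and 2.58 CPM with LINC01432 LNA and 1.37 and 1.79 CPM with control LNA, and the 7 myeloid markers to 4.29 and 5.47 against 3.64 and 3.71 CPM, with LYZ and S100A8 at 0 in each library. The 7 fibroblast and endothelial markers summed to 6.29 and 7.65 CPM against 4.67 and 4.61 CPM, with COL1A1 called higher, while the 5 epithelial markers summed to 99.8 and 99.2 CPM against 118 and 114 CPM, mostly EPCAM and KRT18, with KRT19 at 0. The part of these other markers in the results was not tested. In bulk RNA, fewer cells in a cycle phase and less RNA per cell cannot be told apart.

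The start regions of 4 members are shown first because MRE11 and RAD50, subunits of the same complex, were called in opposite directions, BRCA2 was the second largest fall by log2 fold change, and FANCD2 carried matches to both motifs. Each is the RefSeq window from 250 bases before to 50 after 1 listed start of the gene in GRCh38.p14, written 5′ to 3′ on the gene's own strand. Capitals mark matches, on either strand, to the motif of the ETS factor GABPA (CCGGAAGT) or of the cell cycle factors E2F (TTTCCCGC, TTTCGCGC, TTTGCCGC or TTTGGCGC).
MRE11: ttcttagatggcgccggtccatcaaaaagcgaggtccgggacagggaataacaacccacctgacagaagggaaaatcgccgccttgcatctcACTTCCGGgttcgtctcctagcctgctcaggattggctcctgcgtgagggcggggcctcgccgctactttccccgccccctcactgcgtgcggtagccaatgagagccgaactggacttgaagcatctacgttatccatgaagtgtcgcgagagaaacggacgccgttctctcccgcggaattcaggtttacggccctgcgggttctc
RAD50: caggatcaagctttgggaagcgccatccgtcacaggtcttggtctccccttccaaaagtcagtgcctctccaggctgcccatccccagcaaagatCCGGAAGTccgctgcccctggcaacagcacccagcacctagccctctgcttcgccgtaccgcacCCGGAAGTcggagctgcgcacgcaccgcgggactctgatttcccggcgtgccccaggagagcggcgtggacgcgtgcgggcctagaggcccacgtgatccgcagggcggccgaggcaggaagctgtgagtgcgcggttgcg
BRCA2: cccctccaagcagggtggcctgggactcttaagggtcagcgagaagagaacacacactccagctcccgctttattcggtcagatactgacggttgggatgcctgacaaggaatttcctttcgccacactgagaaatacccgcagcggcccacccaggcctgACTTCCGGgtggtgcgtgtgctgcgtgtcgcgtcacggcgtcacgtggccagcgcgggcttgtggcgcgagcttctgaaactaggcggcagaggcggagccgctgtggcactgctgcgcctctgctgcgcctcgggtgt
FANCD2: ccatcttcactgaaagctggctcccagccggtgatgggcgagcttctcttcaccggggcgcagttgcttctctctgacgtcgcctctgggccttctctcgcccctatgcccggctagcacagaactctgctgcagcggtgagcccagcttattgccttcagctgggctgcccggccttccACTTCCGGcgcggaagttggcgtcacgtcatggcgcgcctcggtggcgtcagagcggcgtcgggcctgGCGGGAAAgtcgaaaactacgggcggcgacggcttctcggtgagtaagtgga
These windows lie at chr11:94493795-94494094 on the minus strand for MRE11, chr5:132556727-132557026 on the plus strand for RAD50, chr13:32315258-32315557 on the plus strand for BRCA2 and chr3:10026187-10026486 on the plus strand for FANCD2. MRE11 and BRCA2 held 1 GABPA match each and RAD50 held 2, so the same letters stood before genes that were called lower and a gene that was called higher.

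The table of RefSeq promoters held 35 of the 37 members, without NBN and FANCI. An E2F match stood in 6 of the 35 (17.1%), namely EXO1, FANCA, FANCC, FANCD2, TOPBP1 and XRCC2, against 3.31% of all 35116 promoters of the same length. None of these 6 genes was called changed, where 7.5% of all genes tested were called higher and 4.37% lower. At those shares, 0 calls among 6 genes does not set them apart. A GABPA match stood in 5 of 35 (14.3%, against 4.14% of all promoters), and a match to the motif of the factor NRF1 in 6 of 35 (17.1%, against 5.78%). The NF-Y motif CCAAT stood in 14 of 35 (40.0%, against 34.6%) and the cell cycle element TTTGAA in 4 of 35 (11.4%, against 15.2%). The interferon-stimulated response element stood in 0 of 35, against 3.57% of all promoters. Both strands were searched, and no match to one of these motifs shared a base with a match to another in the members. The 35116 promoters were not limited to genes tested here or to protein-coding genes, and were not matched to the members in GC content. The shares above therefore do not set the members apart from other expressed genes. Such a match is a stretch of letters and does not show that a factor was bound.

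Of the 37 members, 7 were called lower and 2 higher with LINC01432 LNA, and 28 did not pass (edgeR, adjusted p under 0.05 over all genes tested). All 37 passed the filter on low counts. The 7 lower genes were MRE11, BRCA2, FAN1, RBBP8, BLM, FANCI and ATR, and the 2 higher genes were RAD50 and XRCC3. The lower calls made up 18.9% of the members, where 4.37% of the 18680 genes tested were called lower, and the higher calls 5.41%, where 7.5% were called higher. The difference in shares was not tested, and the list was chosen with earlier results of these data known. The median log2 fold change was -0.12 over the members and 0.01 over all genes tested. Differences were small: the called falls lay between 1.27-fold and 1.45-fold and the called rises were 1.29-fold and 1.47-fold.

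Both LINC01432 LNA libraries lay below both control LNA libraries for 18 members (48.6%), where this held for 25.9% of all genes tested. They lay above both for 9 members (24.3%), where this held for 28.2%. The members' median deviation in log2 CPM from the mean over the 4 libraries, relative to that of all genes, was 0.0025 in LINC01432 LNA library 1 and -0.10 in library 2, against 0.037 and 0.057 in control LNA libraries 1 and 2. Both LINC01432 LNA libraries were thus below both controls, and library 2 was the lower of them.

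Each count moved by more than 1.5 times when a library was left out, except where stated. Without LINC01432 LNA library 1, 16 members were called lower and 4 higher (13.1% and 13.3% of all genes tested). Without LINC01432 LNA library 2, 10 were called lower and 2 higher, the first within 1.5 times of 7 and the second the same number (12.1% and 9.5% of all genes). Without control LNA library 1, 1 member (MRE11) was called lower and 0 higher (0.996% and 2.82% of all genes), and without control LNA library 2, 3 were called lower and 1 higher (1.29% and 3.98%). A fit with a lone library in a group assumes that it varies like the other pair. Among the other alternatives, median-of-ratios scaling gave 7 lower and 1 higher (4.56% and 6.98% of all genes), and limma-voom 7 and 1 (4.31% and 7.33%). Library totals as the only scaling gave 5 lower and 1 higher (3.47% and 6.66%), and DESeq2 5 and 1 (3.43% and 5.25%). Correction for GC content and exon length gave 6 lower and 1 higher (6.95% and 4.59%). At an unadjusted p under 0.05, 16 of the 37 members (43.2%) passed with all 4 libraries, where 4792 of all genes tested (25.7%) did.

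**Figure D1:**
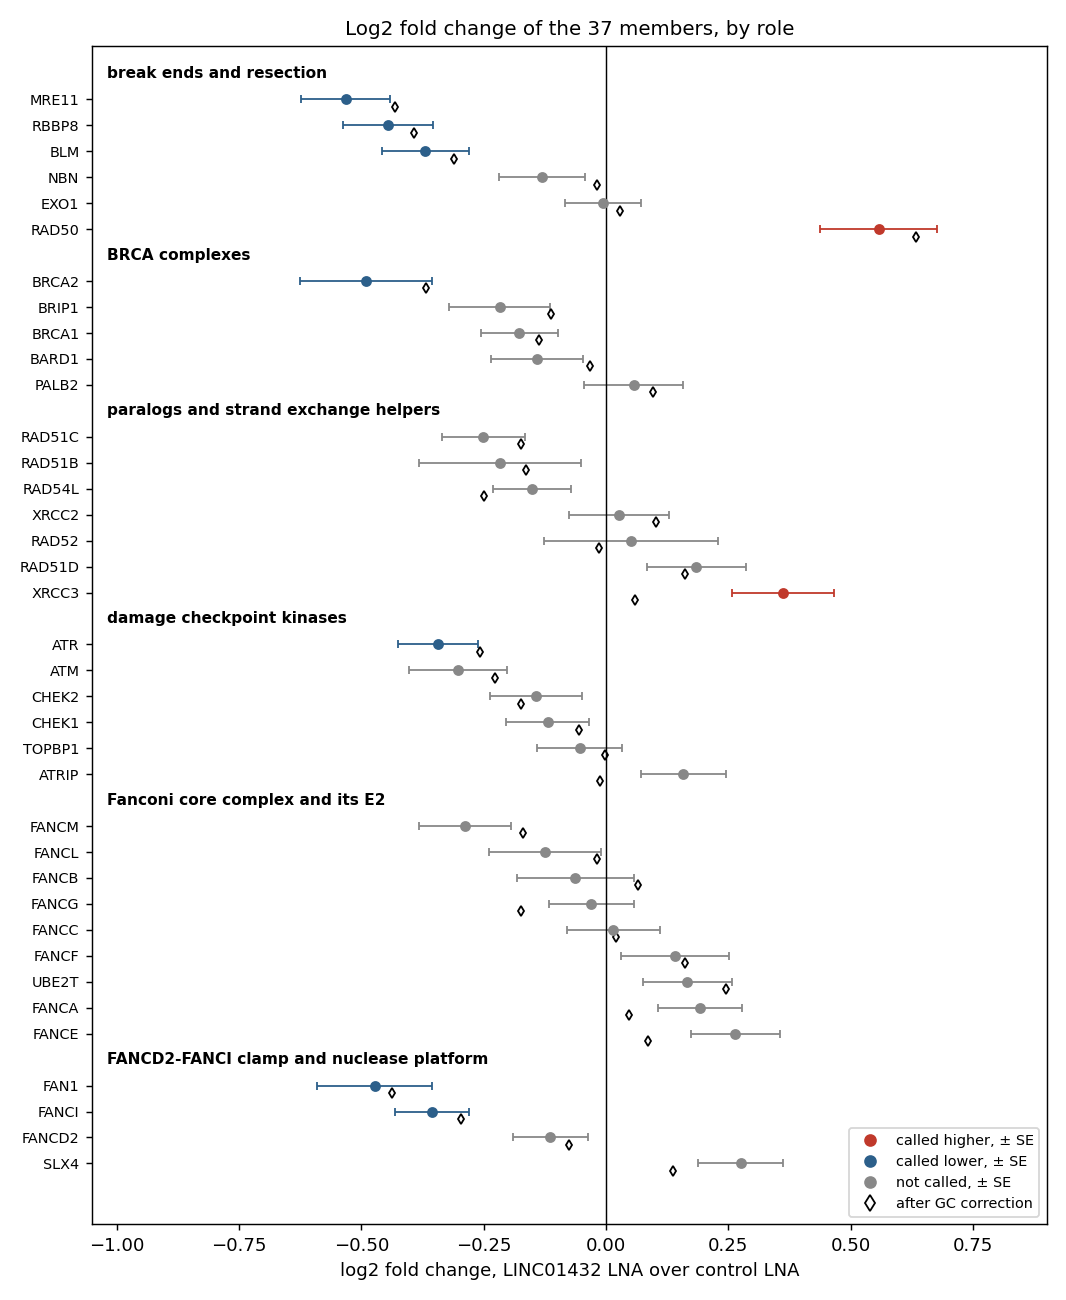
Log2 fold change (x axis, LINC01432 LNA over control LNA) of each of the 37 members, grouped by role, as points with their standard errors from edgeR, and after correction for GC content as open diamonds. Called falls are blue, called rises red and members that did not pass grey; RAD50 lies at 0.56 and MRE11 at -0.53, at the right and left ends.

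The genes that act first at a break moved in both directions. MRE11, the nuclease subunit of the complex that trims break ends (chr11:94415578-94493908, minus strand, GRCh38), had 451 and 481 counts in LINC01432 LNA libraries and 840 and 712 in control LNA libraries, or 21.02 and 19.1 CPM against 28.9 and 29.02 CPM. The groups were well apart, and the level fell to 20.04 ± 1.39 CPM with LINC01432 LNA, against 28.9 ± 0.121 CPM with control LNA (SD, n = 2 each), 1.45-fold (log2 -0.53 ± 0.09, SE; edgeR adjusted p = 0.00312). MRE11 was called lower in each of the 15 alternatives, between -0.62 and -0.38.

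RAD50, the coiled-coil ATPase that tethers the ends (chr5:132556019-132646344, plus strand), had 282 and 338 counts in LINC01432 LNA libraries and 241 and 241 in control LNA libraries, or 13.1 and 13.4 CPM against 8.28 and 9.82 CPM. It rose, with a log2 fold change of 0.56 ± 0.12 (SE; edgeR adjusted p = 0.0115). Without control LNA library 1, its lower control, the value was 0.42 and was not called (adjusted p = 0.269). In GENCODE 29, 79.7% of the exonic bases of RAD50 are shared with a second gene model on the same strand (AC116366.3), which is listed at 0 in each library. How reads in shared bases were counted is not given in the sources used here, so the RAD50 row may hold only part of that gene's reads. Per kilobase of exon RAD50 stood at 1.36 CPM with LINC01432 LNA and 0.926 CPM with control LNA, below MRE11 (2.61 and 3.76 CPM) and the third subunit NBN (9.90 and 10.8 CPM). These values divide by all exonic bases, shared ones included. If reads in shared bases were not counted, the value for RAD50 is too low, so its rank against MRE11 is not settled. NBN, which carries the complex into the nucleus and recruits ATM, had 65.4 and 56.5 CPM in LINC01432 LNA libraries and 66.4 and 67.0 CPM in control LNA libraries. Its log2 fold change was -0.13 ± 0.09 (SE; edgeR adjusted p = 0.405), and -0.26 without LINC01432 LNA library 1.

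RBBP8, which encodes CtIP, the cofactor that starts resection with MRE11 (chr18:22798261-23026488, plus strand), had 67.7 and 57.2 CPM in LINC01432 LNA libraries and 85.1 and 84.8 CPM in control LNA libraries. Its log2 fold change was -0.44 ± 0.09 (SE; edgeR adjusted p = 0.00915). The call was lost without control LNA library 1 (-0.46, adjusted p = 0.0866) or library 2 (-0.46, adjusted p = 0.0737). BLM, the helicase that unwinds DNA for long-range resection and dissolves crossed strands (chr15:90717327-90816165, plus strand), had 47.0 and 41.1 CPM in LINC01432 LNA libraries, against 56.6 and 57.1 CPM in control LNA libraries. It fell 1.29-fold (log2 fold change -0.37 ± 0.09, SE; edgeR adjusted p = 0.0197), and its call was lost without either control LNA library (adjusted p = 0.183 and 0.189). EXO1, the exonuclease of long-range resection, had 120 and 113 CPM with LINC01432 LNA and 117 and 116 CPM with control LNA, groups that overlapped, with a log2 fold change of -0.01 ± 0.08 (SE). Of the 6 genes of this step, 3 were called lower and 1 higher, where 4.37% and 7.5% of all genes tested were, and 2 did not pass.

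**Figure D2:**
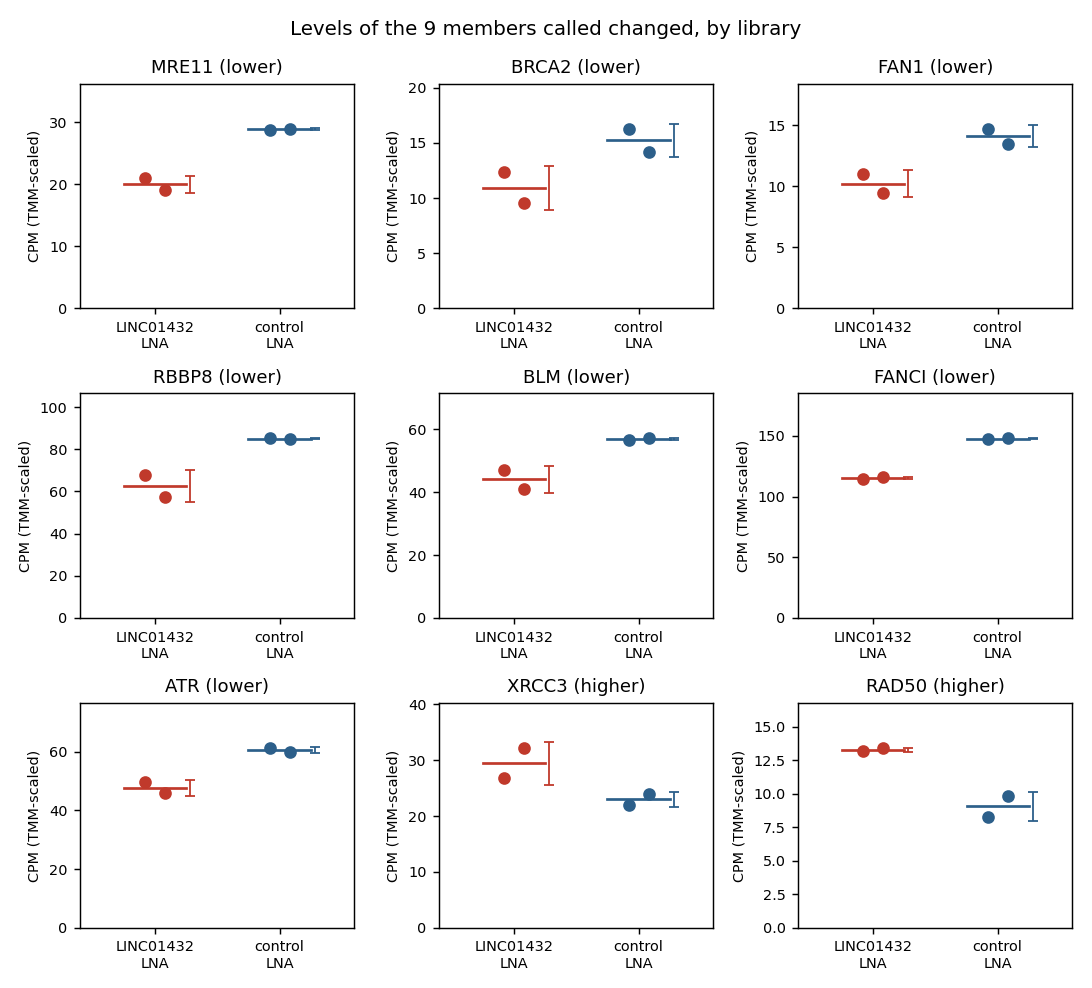
CPM (y axis, from 0) in each library for the 9 members called changed, LINC01432 LNA (red) left of control LNA (blue); points are libraries, horizontal lines group means and bars the SD (n = 2). In each panel the groups do not overlap, which held for 25.9% (below both controls) and 28.2% (above both) of all genes tested. The panels were picked by their calls in these same libraries. Among the falls the control pair has its smallest SD for MRE11 (0.121 CPM) and its largest for BRCA2 (1.51 CPM).

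Among the BRCA complexes, BRCA2 alone passed with all 4 libraries. BRCA2, which prepares single-stranded DNA for strand exchange (chr13:32315474-32400266, plus strand), had 265 and 240 counts in LINC01432 LNA libraries and 475 and 348 in control LNA libraries, or 12.4 and 9.51 CPM against 16.3 and 14.2 CPM. It fell 1.40-fold (log2 fold change -0.49 ± 0.13, SE; edgeR adjusted p = 0.0372), a call close to the threshold. The call was lost without control LNA library 1 (-0.40, adjusted p = 0.274), when scaled by library totals alone (adjusted p = 0.0820), with DESeq2 (adjusted p = 0.0533) and after correction for GC content (-0.37, adjusted p = 0.0564) or for GC content and length (-0.30, adjusted p = 0.0972). BRCA1 and its partner BARD1, which together form a ubiquitin ligase, averaged 97.6 ± 4.69 and 36.0 ± 3.32 CPM with LINC01432 LNA and 110 ± 2.54 and 39.6 ± 2.57 CPM with control LNA (SD, n = 2). Their log2 fold changes were -0.18 ± 0.08 and -0.14 ± 0.09 (SE; edgeR adjusted p = 0.185 and 0.396). BRIP1, a helicase bound to BRCA1, had a log2 fold change of -0.22 ± 0.10 (adjusted p = 0.216), and PALB2, which joins BRCA1 to BRCA2, one of 0.06 ± 0.10 (adjusted p = 0.789). Without LINC01432 LNA library 1, the values of BRCA1, BARD1 and BRIP1 were -0.24, -0.25 and -0.36. Whether BRCA2 differed from its partners in its change was not tested.

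The paralogs and strand exchange helpers split in sign, with 4 of 7 positive and 3 negative, and a median of 0.03. Of the 7, 1 was called higher and 0 lower, where 7.5% and 4.37% of all genes tested were. XRCC3, a paralog that acts with RAD51C (chr14:103697609-103715504, minus strand), had 26.8 and 32.2 CPM in LINC01432 LNA libraries, against 22.1 and 23.9 CPM in control LNA libraries. Its log2 fold change was 0.36 ± 0.10 (SE; edgeR adjusted p = 0.0445), the weakest of the 9 calls. The call held in 5 of 15 alternatives; after GC correction the value was 0.06 (adjusted p = 0.729), and 0.20 when LINC01432 LNA library 2 was left out (adjusted p = 0.132). Without control LNA library 1 the value was 0.29 (adjusted p = 0.469) and without library 2 it was 0.41 (adjusted p = 0.156). In addition, 76.7% of its exonic bases overlap KLC1 on the opposite strand. KLC1 had 425 and 496 counts in LINC01432 LNA libraries and 387 and 351 in control LNA libraries and was itself called higher (log2 fold change 0.52 ± 0.10, SE; edgeR adjusted p = 0.0055). The strand setting of the counting is not given in the sources used here, so reads of XRCC3 and KLC1 cannot be told apart.

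The other paralogs did not pass with all 4 libraries. RAD51C, a paralog in both paralog complexes, had 29.3 and 30.9 CPM in LINC01432 LNA libraries and 36.5 and 35.2 CPM in control LNA libraries, with a log2 fold change of -0.25 ± 0.08 (SE; edgeR adjusted p = 0.0805). Its value was -0.23 without LINC01432 LNA library 1 and -0.31 without library 2. RAD51B, RAD51D and XRCC2, which form a complex with RAD51C, had values of -0.22 ± 0.17, 0.18 ± 0.10 and 0.03 ± 0.10. RAD51B was among the scarcest members, with 3.68 and 3.72 CPM against 4.33 and 4.28 CPM, as was RAD52, an annealing protein, with 3.92 and 3.45 CPM against 3.47 and 3.63 CPM (log2 fold change 0.05 ± 0.18, SE). RAD54L, a DNA motor that helps strand invasion, averaged 55.7 ± 2.69 CPM with LINC01432 LNA and 61.9 ± 1.31 CPM with control LNA. It was not called at -0.15 ± 0.08 (adjusted p = 0.275), but after GC correction it was -0.25 and was called (adjusted p = 0.0443); 25.1% of its exonic bases overlap LRRC41 on the opposite strand.

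Of the 6 damage signalling genes, 1 was called lower (ATR, 16.7%) and 0 higher, where 4.37% and 7.5% of all genes tested were. ATR, the kinase activated by single-stranded DNA at stalled forks (chr3:142449235-142578826, minus strand), had 49.6 and 45.8 CPM in LINC01432 LNA libraries, against 61.2 and 59.8 CPM in control LNA libraries. It fell 1.27-fold (log2 fold change -0.34 ± 0.08, SE; edgeR adjusted p = 0.0195). The call was lost without control LNA library 1 (-0.34, adjusted p = 0.292), without library 2 (-0.37, adjusted p = 0.199) and after correction for GC content and exon length (-0.19, adjusted p = 0.107). ATM, the kinase of double-strand breaks, had 82.2 and 66.6 CPM in LINC01432 LNA libraries and 93.2 and 90.2 CPM in control LNA libraries. Its LINC01432 LNA libraries lay below both controls, as held for 25.9% of all genes tested, but the pair was wide. ATM missed the threshold at -0.30 ± 0.10 (adjusted p = 0.0739). The value of ATM was -0.48 without LINC01432 LNA library 1 and -0.18 without library 2.

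ATRIP, the partner that brings ATR to damage, had 45.3 and 45.4 CPM in LINC01432 LNA libraries and 38.3 and 43.1 CPM in control LNA libraries, with a log2 fold change of 0.16 ± 0.09 (SE; adjusted p = 0.293) that was -0.01 after GC correction. The gene TREX1, listed at 0 in each library, shares 27.9% of the exonic bases of ATRIP on the same strand. How reads in shared bases were counted is not given, so the ATRIP row may hold reads of TREX1 or lack part of its own. TOPBP1, which activates ATR, averaged 114 ± 11.3 CPM with LINC01432 LNA and 118 ± 0.0199 CPM with control LNA (-0.05 ± 0.09, SE). Its value was -0.18 without LINC01432 LNA library 1. The effector kinases CHEK1 and CHEK2 had log2 fold changes of -0.12 ± 0.08 and -0.14 ± 0.09 (adjusted p = 0.426 and 0.392). Both LINC01432 LNA libraries lay below both controls for each, as they did for 25.9% of all genes tested.

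None of the 9 genes of the Fanconi core complex and its ubiquitin-conjugating enzyme was called with all 4 libraries, where 7.5% of all genes tested were called higher and 4.37% lower. At those shares, 0 calls among 9 genes does not set this group apart. FANCM, the translocase that anchors the core complex to DNA, came closest among the falls, with 17.5 and 16.4 CPM in LINC01432 LNA libraries and 20.8 and 20.6 CPM in control LNA libraries (log2 fold change -0.29 ± 0.09, SE; edgeR adjusted p = 0.0695). FANCE, which bridges the core complex to FANCD2, came closest among the rises, with 24.3 and 22.7 CPM against 19.4 and 19.7 CPM (0.26 ± 0.09, adjusted p = 0.0850), but after GC correction its value was 0.09. FANCA, the scaffold subunit most often mutated in Fanconi anaemia, had 0.19 ± 0.09 (adjusted p = 0.190), and 23.6% of its exonic bases overlap ZNF276 on the opposite strand, which was called higher (0.48 ± 0.09, adjusted p = 0.00555). FANCL, the ubiquitin ligase subunit, and FANCB, its binding partner, had -0.12 ± 0.11 and -0.06 ± 0.12. The other subunits FANCC, FANCF and FANCG had 0.01 ± 0.09, 0.14 ± 0.11 and -0.03 ± 0.09. UBE2T, the conjugating enzyme that works with FANCL, had 34.9 and 40.0 CPM in LINC01432 LNA libraries and 33.6 and 33.1 CPM in control LNA libraries (0.17 ± 0.09, adjusted p = 0.289). Without LINC01432 LNA library 1, the values of FANCM, FANCL and UBE2T were -0.35, -0.29 and 0.24, and without LINC01432 LNA library 2 that of FANCE was 0.30. The median of the 9 genes was 0.01, beside 0.01 over all genes tested.

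Downstream of the core complex, the clamp subunit FANCI and the nuclease FAN1 were called lower. These were 2 of 4 genes, with 0 called higher, where 4.37% and 7.5% of all genes tested were called lower and higher. FANCI, the partner of FANCD2 in the clamp (chr15:89243949-89317261, plus strand), had 2461 and 2928 counts in LINC01432 LNA libraries and 4286 and 3630 in control LNA libraries, or 115 and 116 CPM against 147 and 148 CPM. Both pairs were close, and the level fell to 115 ± 0.905 CPM with LINC01432 LNA, against 148 ± 0.531 CPM with control LNA (SD, n = 2 each; log2 fold change -0.36 ± 0.08, SE; edgeR adjusted p = 0.0110). The value lay between -0.38 and -0.36 with any library left out, but without control LNA library 1 or 2 it was not called (adjusted p = 0.257 and 0.266). FANCD2 had 82.8 and 83.4 CPM in LINC01432 LNA libraries, against 88.2 and 91.6 CPM in control LNA libraries, with a log2 fold change of -0.11 ± 0.08 (adjusted p = 0.401). Per kilobase of exon FANCI stood at 14.9 CPM with LINC01432 LNA and 19.0 CPM with control LNA, and FANCD2 at 9.92 and 10.7 CPM.

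FAN1, a nuclease recruited by the ubiquitinated clamp (chr15:30903852-30943108, plus strand), had 236 and 238 counts in LINC01432 LNA libraries and 429 and 331 in control LNA libraries, or means of 10.2 ± 1.11 CPM against 14.1 ± 0.879 CPM (SD, n = 2 each). It fell 1.39-fold (log2 fold change -0.47 ± 0.12, SE; edgeR adjusted p = 0.0239). The call was lost without control LNA library 1 (-0.42, adjusted p = 0.238), when scaled by library totals alone (adjusted p = 0.0527) and with DESeq2 (adjusted p = 0.0528). MTMR10, which overlaps 24.3% of its exonic bases on the opposite strand, was called in the other direction (0.38 ± 0.10, SE; edgeR adjusted p = 0.0300). SLX4, the platform for several structure-specific nucleases, had 28.5 and 29.8 CPM in LINC01432 LNA libraries and 23.5 and 24.7 CPM in control LNA libraries (0.28 ± 0.09, adjusted p = 0.0630), and 0.14 after GC correction. The value of SLX4 was 0.29 without LINC01432 LNA library 1. It was called higher among genes with a mean of at least 1 CPM (edgeR adjusted p = 0.0441).

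**Figure D3:**
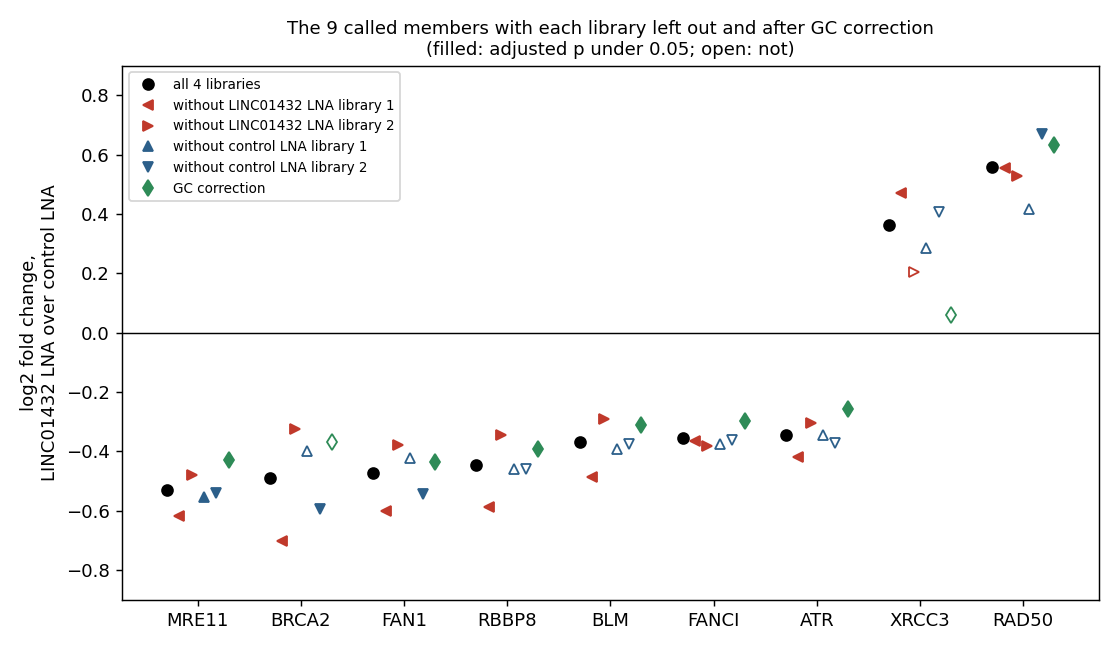
Log2 fold change (y axis) of the 9 called members with all 4 libraries (black), with each library left out (triangles) and after GC correction (green); filled symbols have an edgeR adjusted p under 0.05. MRE11 is filled throughout, and no symbol crosses 0, while XRCC3 drops to 0.06 after GC correction.

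The direction of the members went with their base composition, as it did over all genes tested. Of the 8 members with an exonic GC content of 50% or more, 6 had a positive log2 fold change, 1 was called higher and 0 lower, with a median of 0.17. Of the 29 members with less than 50% GC, 7 had a positive value, 1 was called higher and 7 lower, with a median of -0.14. Over all genes with 50% GC or more, 14.4% were called higher and 1.86% lower (median 0.12), and under 50% GC 2.67% were higher and 6.99% lower (median -0.07). The members were poorer in GC than genes at large, with a median of 41.9% against 48.5%. The 7 lower members ranged from 36.4% (BRCA2) to 44.1% (FAN1).

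After a correction for GC content, 7 members were called lower and 1 higher, where 7.6% and 4.16% of all genes tested were. Of these 7, 6 were the same genes (MRE11, FAN1, RBBP8, BLM, FANCI and ATR); BRCA2 was not called and RAD54L was. RAD50 remained called, at 0.63 ± 0.12 (SE; edgeR adjusted p = 0.00645), and XRCC3 did not. The members' median was -0.03, against -0.04 over all genes tested. The same correction turned the split of calls over all genes from 63.2% higher to 35.4% higher.

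**Figure D4:**
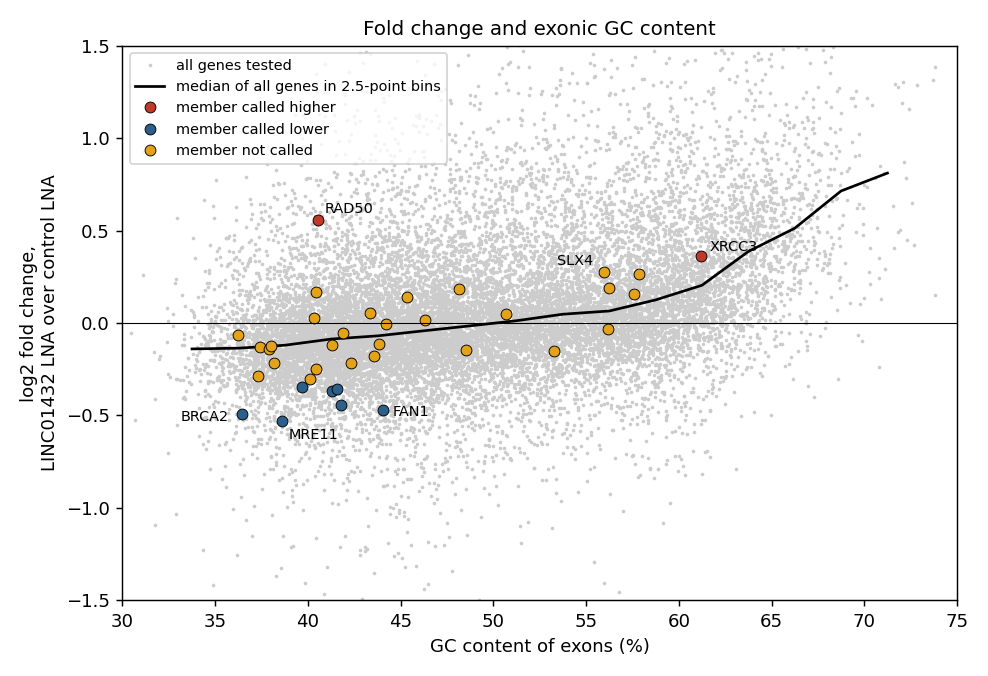
Log2 fold change (y axis, LINC01432 LNA over control LNA, drawn between -1.5 and 1.5) against exonic GC content (x axis, drawn from 30% to 75%) for all genes tested (grey; those beyond the axes are left off) and the 37 members; the black line is the median of all genes in bins of 2.5 percentage points. The 7 called falls lie below the line at 36.4% to 44.1% GC, RAD50 lies above it at 40.5%, and XRCC3 lies near it at 61.2%.

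Members often shared a start region with another gene. For 10 of the 37 (27.0%), a protein-coding gene on the opposite strand began within 1000 bases upstream, where this held for 9.76% of protein-coding genes tested. Among the called members these were BRCA2, whose neighbour ZAR1L starts 130 bases away and had too few counts to be tested, and XRCC3, whose neighbour ZFYVE21 had a log2 fold change of 0.31 ± 0.14 (SE; edgeR adjusted p = 0.180). ERC1, the neighbour of RAD52, was called lower (-0.32 ± 0.09, SE; adjusted p = 0.0322), while RAD52 was not called. The neighbours of BRCA1, PALB2, RAD51C, FANCB, FANCM and SLX4 were tested and not called, and that of RAD51D, FNDC8, was not tested. Opposite-strand genes that began inside a member were not counted, so other members may share a start region with such a gene.

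Partners of the members in the same pathways were read from the same fit. Of 34 further recombination genes tested (36 listed), 0 were called higher and 1 lower (2.94%), where 7.5% and 4.37% of all genes were, with a median log2 fold change of -0.05. The called gene was BABAM2, a subunit of the BRCA1-A complex, with 22.3 ± 0.0160 CPM in LINC01432 LNA libraries and 29.6 ± 0.692 CPM in control LNA libraries (SD, n = 2; edgeR adjusted p = 0.00961). The single-strand binding subunits RPA1 and RPA3 and the helicase MCM8, the next by p, had values of -0.22, -0.23 and -0.28 that did not pass (adjusted p = 0.115, 0.134 and 0.148).

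Of 18 further Fanconi genes, 2 were called higher (11.1%) and 1 lower (5.56%), near the 7.5% and 4.37% of all genes tested (median -0.05). FAAP20, a small core complex subunit, averaged 37.5 ± 2.96 CPM with LINC01432 LNA and 18.5 ± 1.79 CPM with control LNA (SD, n = 2), a log2 fold change of 1.02 ± 0.10 (SE; edgeR adjusted p = 0.000113) that was 0.76 after GC correction and still called. FAAP100, a partner of FANCB and FANCL, rose by 0.42 ± 0.09 on the log2 scale (adjusted p = 0.00891), but the value after GC correction was -0.03. RAD18, a ubiquitin ligase of damaged forks, fell by 0.31 ± 0.09 (adjusted p = 0.0431), a call lost after GC correction (-0.25, adjusted p = 0.0614). MAD2L2, the next by p, had 0.23 ± 0.08 (adjusted p = 0.101).

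Of 18 further checkpoint genes, 2 were called higher (11.1%) and 1 lower (5.56%), also near the 7.5% and 4.37% of all genes tested (median -0.11). H2AX, the histone variant phosphorylated by ATM and ATR beside breaks, averaged 280 ± 10.3 CPM with LINC01432 LNA and 85.4 ± 12.0 CPM with control LNA (SD, n = 2), 3.28-fold higher (log2 fold change 1.71 ± 0.10, SE; edgeR adjusted p = 4.01e-06) and 1.12 after GC correction, still called. TELO2, a chaperone of the ATM and ATR kinase family, had 0.74 ± 0.08 (adjusted p = 0.000172), and 0.17 after GC correction, when it was not called. RAD17, the loader of the checkpoint clamp, fell by 0.41 ± 0.10 (adjusted p = 0.0245), and HUS1, a subunit of that clamp, had -0.35 ± 0.11 (adjusted p = 0.0563).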

How the data were processed

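RNA-seq counts of RPMI 8226 cells were analysed in 2 groups of 2 libraries, placed by their titles. The authors deposited raw counts, 1 whole number for each gene and library. The submitters' processing notes list bcl2fastq, Salmon 1.10.0, STAR 2.7.11b and, from Subread, featureCounts 2.0.8, with the build GRCh38, and assign them no role. Which annotation release and strand setting were counted is not given in the sources used here. On RNA selection the labels conflict, with poly(A) selection in 1 text and removal of ribosomal RNA in another.

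The table held 78932 gene rows, with 92 ERCC and 5 transgene rows (at most 4.2e-05% of a library) left out. Symbols matched 61481 rows; GENCODE 29 (GRCh38) matched 57356 rows with 99.4% of counts and gave positions, exonic GC content, length and overlap. The main test was edgeR 4.0.16's quasi-likelihood F test (R 4.3.3) with TMM, filterByExpr (minimum count 10, total 15), group as the only term, and Benjamini-Hochberg adjustment over 18680 genes; adjusted p under 0.05 was called. Standard errors come from the F statistic. The biological coefficient of variation was 7.13%. With 2 against 2 libraries, an exact permutation test cannot go below p = 0.333. A count of 3 was worth 0.103 to 0.140 CPM. The step was tested on simulated data. Promoter windows come from RefSeq.

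Members and lists were chosen with earlier results of these data known. Named genes were the called members, filled to 12 by p, the other members by value, and up to 4 genes of each further list by p. Alternatives were other scaling and filters, DESeq2 1.42.0, limma-voom (limma 3.58.1), the replicate block, each library left out, correction for GC content (lowess, span 0.3) and for GC content and length, and a table without mitochondrial, immunoglobulin and structured RNA genes. Counts without members of over 20% exonic overlap were added after the data were seen. Python 3.11.15 and matplotlib 3.10.9 were used for tables and figures. The result for a single further gene is not reported here.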

Additional observations from a re-analysis of the deposited data

How the results depend on the processing

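With any library left out, the members called higher ranged from 0 to 4 and lower from 1 to 16, and over all genes the calls ranged from 566 to 2637 higher and from 200 to 2591 lower, against 1401 and 817. The replicate numbers are shared by the groups, but no label says that they mark a shared culture or day, and same-numbered libraries deviated together with a correlation of 0.128 over genes. With the replicate number as a block, 4 members were called higher (FANCE and SLX4 added) and 10 lower (RAD51C, ATM and FANCM added), and over all genes 2245 higher (12%) and 1617 lower (8.66%).

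With median-of-ratios scaling, library totals only, DESeq2, limma-voom, GC correction, or GC and length correction, 1 member was called higher. Without the 6 members of over 20% exonic overlap, 0 of 31 were called higher and 6 lower, where 7.5% and 4.37% of all genes tested were. The called members left out by this limit were RAD50, XRCC3 and FAN1. GC correction gave 778 genes higher and 1419 lower and a members' median of -0.033. GC and length correction gave 857 and 1298 and a median of -0.018. GC correction with the replicate block gave 2391 lower and a median of -0.031. The cause of these shifts was not tested.

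Members near 0 changed sign, all of them without a call in the fits where they did. With libraries left out, values ran from -0.10 to 0.17 for PALB2, -0.075 to 0.093 for XRCC2, -0.057 to 0.13 for RAD52, -0.11 to 0.10 for FANCC, -0.13 to 0.032 for FANCG, -0.067 to 0.020 for EXO1, -0.18 to 0.027 for TOPBP1, -0.22 to 0.060 for FANCB and -0.29 to 0.0020 for FANCL. Without a filter FANCC was -0.00070, and at a mean of at least 1 CPM EXO1 was 0.0065. After GC correction, without and with the block, EXO1 was 0.029 and 0.029, RAD52 -0.014 and -0.012, ATRIP -0.013 and -0.013, and FANCB 0.065 and 0.065. After GC and length correction NBN was 0.016, EXO1 0.041, BARD1 0.00046, RAD52 -0.00092, TOPBP1 0.043 and FANCB 0.070. The depth limits precision most for RAD51B and RAD52, with at most 126 counts in a library.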

Other observations

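Genes of end joining and of the brake on resection, which compete with recombination for break ends, were called in both directions. Of 21 tested, 2 were called higher (9.52%) and 3 lower (14.3%), where 7.5% and 4.37% of all genes tested were, with a median log2 fold change of -0.13. TP53BP1, which shields ends from resection, averaged 29.2 ± 1.19 CPM in LINC01432 LNA libraries and 41.1 ± 0.3001 CPM in control LNA libraries (SD, n = 2; log2 fold change -0.49 ± 0.08, SE; edgeR adjusted p = 0.00300), although 28.7% of its exonic bases overlap other genes. SHLD1, a subunit of the shieldin complex that acts with it, had 2.80 ± 0.0722 CPM with LINC01432 LNA and 4.50 ± 0.0951 CPM with control LNA (-0.68 ± 0.17, SE; adjusted p = 0.0274). HELB, a helicase that slows resection, was called higher (0.38 ± 0.09, SE; adjusted p = 0.0197), and so was PAXX, an end joining factor (0.57 ± 0.09, adjusted p = 0.00249), which had 0.05 after GC correction.

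Of 30 replication licensing and fork genes, 3 were called higher (10%) and 2 lower (6.67%; median -0.07), and of 18 E2F cell cycle genes 2 were higher (11.1%) and 1 lower (5.56%; median -0.03). These shares lie near the 7.5% higher and 4.37% lower over all genes tested. CDT1 and POLD1 had 0.66 ± 0.08 and 0.44 ± 0.09 (SE; edgeR adjusted p = 0.000545 and 0.00793), and 0.16 and -0.06 after GC correction. POLA1, the catalytic subunit of DNA polymerase alpha, fell by 0.40 ± 0.08 (adjusted p = 0.00806), and ORC6 rose by 0.35 ± 0.09 (adjusted p = 0.0255). CCNA2, the cyclin of S and G2 phase, averaged 117 ± 3.41 CPM with LINC01432 LNA and 82.6 ± 3.99 CPM with control LNA (SD, n = 2; adjusted p = 0.00214), whereas E2F8 had 34.0 ± 2.05 and 45.3 ± 3.18 CPM (adjusted p = 0.0116). UHRF1 was called higher (0.29 ± 0.08, adjusted p = 0.0456), but not after GC correction (0.16, adjusted p = 0.200). MKI67 did not pass (-0.23 ± 0.09, adjusted p = 0.126).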
